A study of Homo sapiens with 4 samples.

Results

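The interferon genes and viral RNA sensors are 10 genes chosen by name, of 58735 in the files. They are the interferon genes IFNB1, IFNL1, IFNL2 and IFNL3, the sensors DDX58, IFIH1, DHX58 and TLR3, the adaptor MAVS and the transcription factor IRF3. All 10 had a row in every file. The list was drawn up with the doxycycline and control levels of these genes already known. Their levels in that comparison are therefore given as a description, with no test.

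The RNA came from 769-P, an established line of human clear cell kidney cancer, stably transfected with an inducible short hairpin RNA against USP35, a deubiquitinating enzyme, and kept in puromycin. There were 2 untreated control libraries and 2 libraries from cells given doxycycline at 1 µg/ml for 4 days, which switches the hairpin on. All 4 libraries carry the construct in the same 769-P cancer line, and cells given doxycycline without the hairpin were not analysed here. The labels do not say whether the line is 1 clone or whether replicates were separate cultures, so the spread between replicates may be technical.

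Double-stranded RNA in the cytosol is recognised by the RIG-I-like receptors, which signal through MAVS on the mitochondrial surface to the kinases TBK1 and IKBKE. These phosphorylate IRF3, which enters the nucleus and switches on interferon beta and the interferon lambdas. Secreted interferon then acts on its receptors and raises many antiviral genes, among them the genes of the sensors themselves.

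The untreated libraries held 16319640 and 17244546 recovered reads, and doxycycline replicates 1 and 2 held 17481827 and 18764546. Levels are FPKM, reads scaled to gene length and to the size of the library, and whole reads were recovered from them. USP35 stood at 3.31 and 4.19 FPKM untreated, against 2.11 and 2.54 FPKM after doxycycline. Mitochondrially encoded genes took between 7.44% and 8.50% of reads in the controls and doxycycline replicate 1, and 14.6% in doxycycline replicate 2. Of 9 kidney tubule and carcinoma markers, 8 had a mean of at least 1 FPKM, with PAX8 between 38.5 and 53.9 FPKM, while CA9 was at or under 0.0377 FPKM in every library. Across the 12029 genes whose mean reached 1 FPKM, 0 passed a limma adjusted p of 0.05 in either direction (0.0% higher, 0.0% lower). At an unadjusted p under 0.05 there were 778 higher (6.47%) and 1426 lower (11.9%), and limma-voom on the recovered reads also called 0 genes. A replicate block gave 202 higher and 582 lower, and a mean FPKM of at least 5 gave 42 and 219. Without doxycycline replicate 1 limma called 1553 higher and 2389 lower, and without doxycycline replicate 2 it called 596 and 1009, the lone library being assumed to vary like the controls.

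Transcripts of all 4 interferon genes were read in doxycycline replicate 1 and almost nowhere else. Together they held 44 reads in that library (exact 95% Poisson interval 31.97 to 59.1), against 0 and 1 in the controls and 0 in doxycycline replicate 2. In bulk RNA, more cells making a transcript and more transcript in each cell cannot be told apart.

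IFNB1 encodes interferon beta, the type I interferon that most cell types can make. The gene (ENSG00000171855) lies on GRCh38 chromosome 9 from 21077105 to 21077963, minus strand. It had 0 reads in control replicate 1, 1 read in control replicate 2, 14 reads in doxycycline replicate 1 (interval 7.65 to 23.5) and 0 reads in doxycycline replicate 2. In FPKM these were 0, 0.0668, 0.867 and 0. Doxycycline replicate 1 stood alone, and doxycycline replicate 2 lay with the controls. The ratio of doxycycline replicate 1 to both controls pooled was 24.8 with a counting interval of 3.77 to 1048, which is wide because it rests on the 1 control read. Taking the value of doxycycline replicate 1 as exact, it was 4.55 times the level that 3 reads would give in replicate 2, 3 reads being a one-sided limit for a count of 0. The interval of doxycycline replicate 1, 0.474 to 1.45 FPKM, lay above those of the other libraries, whose two-sided upper limits were 0.234 to 0.372 FPKM. Intervals and limits of this kind describe counting error only, because reads carry no molecular identifiers and are not independent molecules.

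The sequence before the IFNB1 start is shown because it holds the compact control region for which the gene is known. It is taken from RefSeq (GRCh38.p14, chr9:21077943-21078192, minus strand) and printed from the distal to the proximal end. Capitals mark a kappaB-like motif and a TATA box.

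IFNB1: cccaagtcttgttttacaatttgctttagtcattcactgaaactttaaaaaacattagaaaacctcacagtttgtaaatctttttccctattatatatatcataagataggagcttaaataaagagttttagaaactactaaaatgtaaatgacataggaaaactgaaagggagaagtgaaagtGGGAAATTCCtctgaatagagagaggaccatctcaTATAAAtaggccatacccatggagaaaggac

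The kappaB-like motif, searched as GGGA, any 2 bases and TTCC on both strands, began at position -66 and the TATAAA match at -31, counted from the RefSeq start at position 0. In windows of 250 bases before to 50 after a start, 1.61% of 35116 promoters held the first and 11.5% the second. The core of the interferon-stimulated response element, the site bound by interferon-activated factors, was searched as GAAA, any 2 bases and GAAA on both strands and gave no match in the IFNB1 window. It was found in 3.57% of all promoters.

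IFNL1, IFNL2 and IFNL3 encode the interferon lambdas, the type III interferons that act mainly on epithelial cells. They lie close together on chromosome 19. IFNL1 (ENSG00000182393, 39296325 to 39298673, plus strand) had 12 reads in doxycycline replicate 1 and 0 in the other 3 libraries, a level of 0.745 FPKM. IFNL2 (ENSG00000183709, 39268514 to 39270092, plus strand) had 8 reads there and 0 elsewhere, at 0.577 FPKM. IFNL3 (ENSG00000197110, 39243553 to 39245129, minus strand) had 10 reads there and 0 elsewhere, at 0.690 FPKM. For each of the 3 genes doxycycline replicate 2 was thus listed at 0 like both controls.

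With the value of doxycycline replicate 1 again taken as exact, IFNL1 was 3.38 times the level that 3 reads would give in control replicate 1 and 3.90 times that in doxycycline replicate 2. For IFNL2 these ratios were 2.25 and 2.60, and for IFNL3 they were 2.81 and 3.25. The interval of IFNL2 in doxycycline replicate 1, 0.249 to 1.14 FPKM, overlapped those of the other 3 libraries, which reached 0.273 to 0.315 FPKM. Those of IFNL1 and IFNL3, from 0.385 and 0.331 FPKM upward, lay above the upper limits of the other libraries, at most 0.271 and 0.302 FPKM. Per kilobase the 4 interferon genes lay between 0.577 and 0.867 FPKM in doxycycline replicate 1, and their counting intervals overlapped, so no order among them can be read. The lambda genes gave 30 of the 44 interferon reads.

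**Figure D1:**
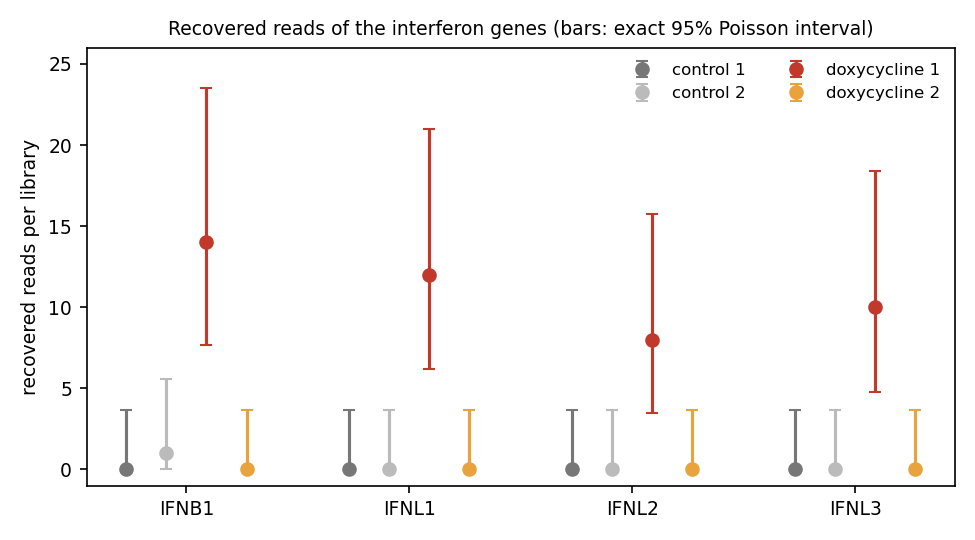
Recovered reads (vertical axis) of IFNB1, IFNL1, IFNL2 and IFNL3 in each of the 4 libraries, with exact 95% Poisson intervals as bars. Doxycycline replicate 1 held between 8 and 14 reads of each gene, and each of the other libraries held 0 or 1.

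IFNL2 and IFNL3 are near-identical copies, which makes the split of reads between them uncertain. Over 600 coding bases, 589 (98.2%) were identical in the GENCODE 29 transcripts, and the longest shared stretch ran for 125 bases. IFNL1 shared 74.8% of aligned coding positions with either. A stretch of coding sequence is printed to show how little separates the pair, with the differing bases in capitals (GRCh38, chr19:39269567-39269626, plus strand, for IFNL2 and chr19:39244019-39244078, minus strand, for IFNL3). It was picked as the stretch of its length within a single exon with the most differences, 3 bases. Over all 600 coding bases 11 differed.

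IFNL2: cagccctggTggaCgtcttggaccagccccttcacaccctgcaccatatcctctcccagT

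IFNL3: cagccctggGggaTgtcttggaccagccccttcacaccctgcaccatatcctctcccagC

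At the upstream IFNL3 start the promoters of the pair were as alike, with 299 of 300 positions identical between its window and that of IFNL2. Both of these windows held the response element core at the same place, beginning at -176. The window of the other IFNL3 start matched that of IFNL2 at 66 of 300 positions (22.0%), compared position by position, and held no such core. The IFNL1 window held 2 overlapping matches, beginning at -214 and -208, and 0.259% of promoters held 2 or more. The stretches upstream of the start are printed from RefSeq (IFNL1, chr19:39296157-39296324, and IFNL2, chr19:39268146-39268395, both plus strand), with the matches in capitals. The printed IFNL1 stretch ends at position -83, just before the GENCODE start.

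IFNL1: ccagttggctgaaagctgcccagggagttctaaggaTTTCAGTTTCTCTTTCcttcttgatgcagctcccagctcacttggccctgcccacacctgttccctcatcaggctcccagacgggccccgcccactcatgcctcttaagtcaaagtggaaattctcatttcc

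IFNL2: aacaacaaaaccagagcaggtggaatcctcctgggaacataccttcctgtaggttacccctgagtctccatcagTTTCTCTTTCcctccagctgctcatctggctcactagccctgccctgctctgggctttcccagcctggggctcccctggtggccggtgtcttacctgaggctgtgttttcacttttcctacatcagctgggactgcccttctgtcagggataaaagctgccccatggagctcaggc

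Of 18 interferon genes outside the chosen 10, which comprise the interferon alphas, omega, epsilon, kappa, gamma and IFNL4, 16 were listed at 0 in all 4 libraries. IFNE, an interferon known from epithelia of the reproductive tract, had 6, 6, 6 and 11 reads in control replicates 1 and 2 and doxycycline replicates 1 and 2. Its reads in doxycycline replicate 1 thus equalled those in each control, unlike those of IFNB1. IFNL4, a lambda gene that is a pseudogene in many people, had 2 reads in doxycycline replicate 1 and 0 elsewhere. Over all 58735 genes, 41 (0.0698%) had at least 8 reads in doxycycline replicate 1 and at most 1 in each other library, and 40 (0.0681%) showed the same for doxycycline replicate 2. The threshold of 8 reads was chosen after the values were seen, and all 4 interferon genes are among the 41. So were MX2, an interferon-induced GTPase, with 383 reads, XAF1 with 163 and IL6, an inflammatory cytokine, with 14, which were chosen after their values were seen.

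Plasmacytoid dendritic cells, which specialise in making interferon, were looked for by their markers. The plasmacytoid dendritic cell markers CLEC4C and LILRA4 were listed at 0 in every library, and the other 3 of the 5 markers were above 0 in at least 1 library. The summed level of the 5 was 2.60 and 3.32 FPKM untreated, against 8.81 and 5.58 FPKM after doxycycline, nearly all of it IL3RA. Of 7 other leukocyte markers 3 were listed at 0 throughout, and the 7 summed to between 0.283 and 0.566 FPKM. The 3 endothelial markers summed to at most 0.00512 FPKM, and the 4 fibroblast markers to between 0.193 and 0.804 FPKM. The part of IL3RA-bearing cells in the interferon reads was not tested.

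The 3 RIG-I-like receptor genes stood above both controls in each doxycycline library, by far the most in doxycycline replicate 1. Of the 10 genes, 6 passed the filter of a mean of 1 FPKM, among them all 4 sensors, and TLR3 passed only through the doxycycline libraries. All 4 sensors showed this separation, a pattern shown by 24.3% of the genes tested and fixed here by the choice of genes. The median log2 difference of the 4 sensors was 2.81 in doxycycline replicate 1 and 0.76 in replicate 2, on the log2(FPKM + 1) scale. Over all genes tested the medians were -0.02 and -0.03.

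DDX58 encodes RIG-I, which binds short double-stranded RNA with a 5′ triphosphate. It (ENSG00000107201, chromosome 9, 32455705 to 32526324, minus strand) stood at 5.85 and 5.94 FPKM in control replicates 1 and 2, then 93.7 FPKM for doxycycline replicate 1 and 13.0 FPKM for replicate 2. These values rest on 404, 450, 7670 and 1035 reads. The controls were almost alike, and both doxycycline libraries lay above them without overlap. Doxycycline replicate 1 was 15.9 times the control mean and replicate 2 was 2.20 times it. Counting intervals were 14.8 to 17.1 and 2.01 to 2.41, so counting error does not cover the gap between the 2 doxycycline libraries. Their mean was 53.4 ± 57.1 FPKM (SD, n = 2) against 5.89 ± 0.06 FPKM (SD, n = 2) in the controls, and the spread within the doxycycline group exceeded the difference between the groups.

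IFIH1 encodes MDA5, which binds long double-stranded RNA. It (ENSG00000115267, chromosome 2, 162267079 to 162318703, minus strand) stood at 2.42 and 1.81 FPKM untreated, then 30.3 FPKM for doxycycline replicate 1 and 3.48 FPKM for replicate 2, from 196, 161, 2908 and 326 reads. The ratios to the control mean were 14.3 and 1.65. Doxycycline replicate 2 lay much nearer to the controls than replicate 1 did, and its counting interval of 3.12 to 3.88 FPKM lay above those of both controls.

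DHX58 encodes LGP2, a relative without the signalling domains of the other pair, which modulates their activity. It (ENSG00000108771, chromosome 17, 42101404 to 42112733, minus strand) stood at 1.26 and 1.85 FPKM untreated, then 11.4 FPKM for doxycycline replicate 1 and 2.46 FPKM for replicate 2. The reads behind these were 77, 124, 822 and 173. The ratios were 7.30 and 1.58, and the controls themselves differed by a ratio of 1.47. In doxycycline replicate 2 the counting interval, 2.11 to 2.85 FPKM, overlapped that of control replicate 2, 1.54 to 2.21 FPKM.

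TLR3 encodes the Toll-like receptor that senses double-stranded RNA in endosomes and signals through TICAM1 rather than MAVS. It (ENSG00000164342, chromosome 4, 186069152 to 186088069, plus strand) stood at 0.872 and 0.709 FPKM untreated, then 2.90 FPKM for doxycycline replicate 1 and 2.54 FPKM for replicate 2, from 93, 83, 366 and 313 reads. Here the doxycycline libraries were close to each other, with a mean of 2.72 ± 0.25 FPKM (SD, n = 2) against 0.79 ± 0.12 FPKM (SD, n = 2) in the controls. The ratios to the control mean were 3.66 in doxycycline replicate 1 and 3.22 in replicate 2. Their counting intervals, 3.07 to 4.43 and 2.68 to 3.91, overlapped.

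The sensors thus differed in how much of the increase of doxycycline replicate 1 was also present in replicate 2. Measured from the control mean in FPKM, replicate 2 showed 8.07% of it for DDX58, 4.87% for IFIH1, 9.17% for DHX58 and 83.2% for TLR3. By log2 difference among the 12029 genes tested, DDX58 was number 15 from the top in doxycycline replicate 1 and number 363 in replicate 2. IFIH1 was number 19 and number 1639, DHX58 number 47 and number 2142, and TLR3 number 196 and number 390. In doxycycline replicate 1, 472 genes (3.92%) were at least 2-fold above the control mean and all 4 sensors were among them. At least 10-fold above it were 39 genes (0.324%), with DDX58 and IFIH1 among them, and in replicate 2 there were 30 (0.249%), with none of the sensors. At least 2-fold above it in replicate 2 were 720 genes (5.99%), with DDX58 and TLR3 among them. At least 2-fold above it in both libraries at once were 190 genes (1.58%), again with DDX58 and TLR3 among them. The sensors were chosen with these levels known, so their places are a description only. TLR3 also passed the filter only through the doxycycline libraries.

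**Figure D2:**
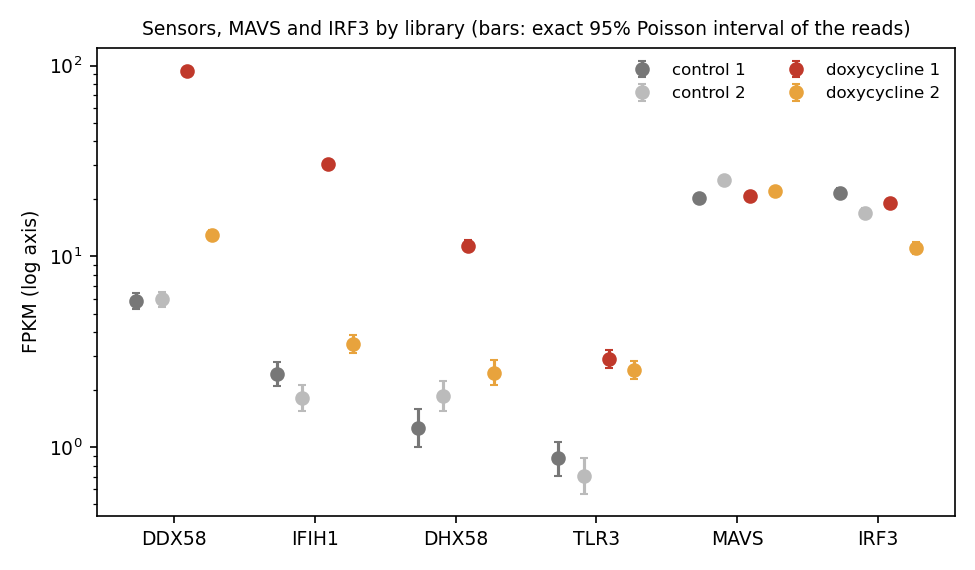
FPKM (log axis) of the 4 sensors, MAVS and IRF3 in each library, with exact 95% Poisson intervals of the reads as bars. DDX58, IFIH1 and DHX58 are highest in doxycycline replicate 1, TLR3 lies at 2.90 and 2.54 FPKM in the 2 doxycycline libraries, and MAVS stays between 20.2 and 24.99 FPKM.

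The order of levels changed with the library. In the controls DDX58 led the sensors, IFIH1 and DHX58 followed with levels that exchanged places between the replicates, and TLR3 came last. The per-length ratio of DDX58 to IFIH1 was 2.42 and 3.28 untreated, then 3.10 for doxycycline replicate 1 and 3.73 for replicate 2, so the pair kept a similar proportion while both levels varied. The ratio of DDX58 to TLR3 was 6.71 and 8.37 in the controls and 5.11 in doxycycline replicate 2, but 32.4 in doxycycline replicate 1. The ratio of DDX58 to MAVS was 0.290 and 0.237 untreated, 0.590 for doxycycline replicate 2 and 4.51 for replicate 1. In doxycycline replicate 1 both DDX58 and IFIH1 exceeded MAVS and IRF3, while in replicate 2 DDX58 exceeded IRF3 but not MAVS, and in the controls neither exceeded either.

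Promoter windows in the RefSeq table matched 8 of the 10 genes, without DHX58 and IRF3. They are shown for the sensors because the levels of the RIG-I-like receptors varied together. IFIH1 held 3 matches to the response element core, beginning at -159, -153 and -21, the first 2 of which overlap, and 0.037% of promoters held 3 or more. It also held a kappaB-like match at -76. TLR3 held 1 response element match that spans the start, from -4 to 5. DDX58 had no such match in its window and 1 kappaB-like match, at -76, while the MAVS window had none of the 3 motifs. The GENCODE start of DDX58 lies 128 bases upstream of the RefSeq start, so the DDX58 match lies inside the gene as annotated there. The DDX58 window thus covers fewer bases before the GENCODE start. The stretches are printed from RefSeq (GRCh38.p14) with all matches in capitals. They are chr2:162318685-162318934, minus strand, for IFIH1, chr4:186068906-186069161, plus strand, for TLR3 and 30 bases at chr9:32526253-32526282, minus strand, for DDX58.

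IFIH1: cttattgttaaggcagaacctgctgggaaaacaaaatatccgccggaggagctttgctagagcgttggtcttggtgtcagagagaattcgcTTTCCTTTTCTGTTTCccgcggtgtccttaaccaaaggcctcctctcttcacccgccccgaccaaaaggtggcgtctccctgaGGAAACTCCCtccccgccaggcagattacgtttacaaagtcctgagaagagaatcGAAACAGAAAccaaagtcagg

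TLR3: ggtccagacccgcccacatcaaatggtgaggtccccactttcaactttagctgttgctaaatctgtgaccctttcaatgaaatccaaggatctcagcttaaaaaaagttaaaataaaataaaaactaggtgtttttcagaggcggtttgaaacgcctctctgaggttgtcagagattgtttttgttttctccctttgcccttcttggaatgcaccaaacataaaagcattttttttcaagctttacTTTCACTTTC

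DDX58: tcatttcctcGGAAAATCCCtgctttcccc

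A match is a description of the letters, not a measured binding site, and windows without a match say only that these letters are not there.

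**Figure D3:**
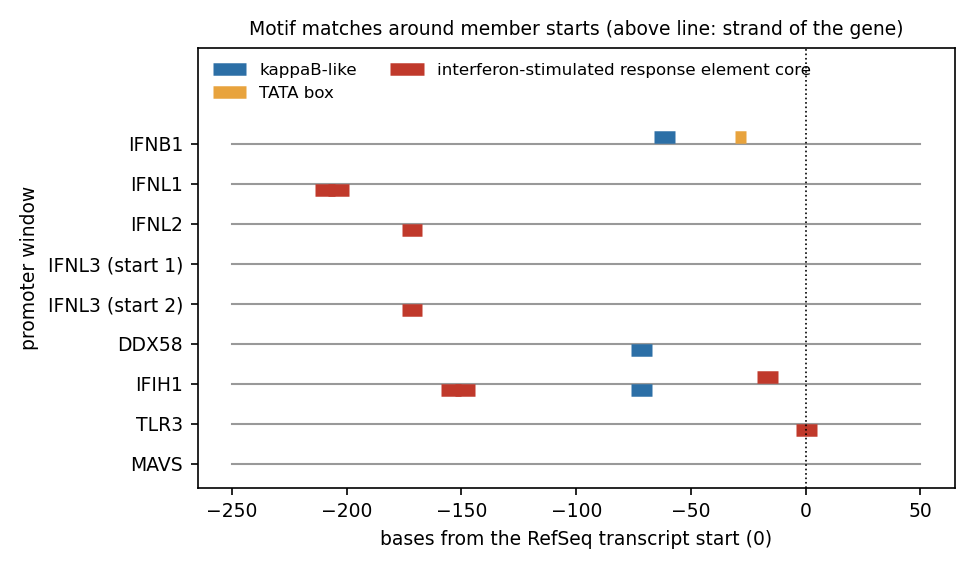
Positions of the 3 motifs in the promoter windows, in bases from the RefSeq transcript start, with matches on the strand of the gene above each line and on the other strand below it. IFIH1 holds 3 response element matches, IFNL1 holds 2, and IFNL2, the second IFNL3 window and TLR3 hold 1 each.

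MAVS, the mitochondrial adaptor of the RIG-I-like receptors, did not separate the groups. It (ENSG00000088888, chromosome 20, 3846799 to 3876123, plus strand) stood at 20.2 and 24.99 FPKM untreated, against 20.8 and 22.0 FPKM for doxycycline replicates 1 and 2, from 3771, 5124, 4594 and 4745 reads. Both doxycycline libraries lay between the controls. Depth is not the limit here, since the counting intervals of the ratios to the pooled controls were 0.882 to 0.948 and 0.936 to 1.00.

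IRF3, the transcription factor that MAVS and TLR3 signalling activates by phosphorylation, was lower in 1 doxycycline library. It (ENSG00000126456, chromosome 19, 49659569 to 49665875, minus strand) stood at 21.6 and 16.8 FPKM untreated, then 18.9 FPKM for doxycycline replicate 1 and 11.1 FPKM for replicate 2. Doxycycline replicate 1 lay between the controls, with a ratio of 0.985 to their mean, and replicate 2 lay below both, with a ratio of 0.578. The groups overlapped. Doxycycline replicate 2 was also the library with the higher mitochondrial share of reads, 14.6%, whose part in this value was not tested. Scaling by reads outside the mitochondrial genome gave a log2 difference of -0.66 in doxycycline replicate 2, against -0.73 for the values as deposited.

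IRF3 overlaps BCL2L12, a gene of the BCL2 family on the plus strand, by 734 bases, and without strand information the reads there cannot be told apart. BCL2L12 stood at 18.9 and 17.2 FPKM untreated, against 9.10 and 4.51 FPKM after doxycycline. Both doxycycline libraries lay below both controls for BCL2L12, which IRF3 did not show in doxycycline replicate 1. The other 9 genes overlap no annotated gene.

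Genes known to respond to interferon were listed, and 12 of 14 passed the filter. Whether interferon set their levels here was not tested. IFIT1, IFIT2, IFIT3, ISG15, OAS1, IFI44 and IFI6, chosen after their values were seen because both controls were above 1 FPKM, stood at 29.1 to 95.3 times the control mean in doxycycline replicate 1. In replicate 2 they stood at 0.785 to 2.13 times it. At least 2-fold above the control mean were 3.92% and 5.99% of all genes tested. IFI6, an interferon-induced mitochondrial protein, stood at 3.06 and 2.92 FPKM untreated, then 285 FPKM for doxycycline replicate 1 and 6.38 FPKM for replicate 2 (limma adjusted p = 0.291). CXCL10, a chemokine, stood at 0 and 0.0488 FPKM, 6.83 FPKM and 0.882 FPKM, and OASL at 0.0538 and 0.0490 FPKM, 21.3 FPKM and 0.357 FPKM. RSAD2, which encodes the antiviral enzyme viperin, stood at 34.1 FPKM for doxycycline replicate 1 and 0.294 FPKM for replicate 2, and CCL5, a chemokine, at 6.16 and 0.469 FPKM, with both controls at or under 0.167 FPKM. CXCL10, OASL, RSAD2, CCL5 and CMPK2 passed the filter only through doxycycline replicate 1, so their higher level there was fixed by the filter. No test is given for these genes. The 14 genes were listed with earlier results of these data known.

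The genes with the profile most like that of DDX58, by Euclidean distance of log2(FPKM + 1) minus the control mean over the 4 libraries, were BST2, IFITM1, IFIH1, OAS1 and CXCL10, with distances of 0.306 to 0.859 among 14400 genes with at least 50 reads. BST2, which tethers budding virus, stood at 0.676 and 0.359 FPKM untreated, against 18.3 and 1.71 FPKM after doxycycline. TLR3 had other neighbours, namely CDKN1A, OSGIN1, SLC7A11, AL365273.1 and RND3, at distances of 0.0888 to 0.142. CDKN1A, the cell cycle inhibitor p21, stood at 137 and 126 FPKM untreated, against 287 and 279 FPKM after doxycycline. For IFNB1 they were NSUN5P2, KCNK6, KLHDC7B, SLC15A3 and GBP4, at 0.0448 to 0.0883, small distances that partly reflect values near 0. With 4 libraries such likeness says only that values were high and low in the same libraries.

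The rest of the sensing pathway is described by counts and medians. Over 5 lists of 82 signalling genes 70 passed the filter, and 0 of them passed limma adjusted over all genes. Adjusted calls were 1 higher and 1 lower with a replicate block, 7 and 12 without doxycycline replicate 1, and 10 and 3 without doxycycline replicate 2. At an unadjusted p under 0.05, 4 were higher and 7 lower, beside 6.47% and 11.9% of all genes tested. With 1 library left out these counts ran from 0 to 14 and from 1 to 16, the lowest without control replicate 1 and the highest without doxycycline replicate 2 and doxycycline replicate 1. The median log2 difference of the 70 was 0.12 in doxycycline replicate 1 and -0.03 in replicate 2. At least 2-fold above the control mean were 9 of 70 in doxycycline replicate 1 and 1 of 70 in replicate 2, against 3.92% and 5.99% of all genes tested. At least 2-fold below it were 1 and 4 of 70, against 6.18% and 11.9%.

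Among 20 adaptors and kinases downstream of the sensors, all of which passed the filter, 0 were higher and 2 lower at an unadjusted p under 0.05. Over all genes tested these shares were 6.47% and 11.9%. IKBKE, one of the kinases that phosphorylate IRF3, stood at 4.84 and 4.85 FPKM untreated, against 2.20 and 2.25 FPKM after doxycycline, at least 2-fold below the control mean in both libraries (limma log2 difference -0.86, standard error 0.17, adjusted p = 0.0857). At least 2-fold below in both were 3.48% of all genes tested. TRAF2, a ubiquitin ligase adaptor, stood at 21.6 and 18.4 FPKM untreated, against 14.7 and 8.47 FPKM after doxycycline (limma adjusted p = 0.235). IRF7, the factor that amplifies interferon production and is itself interferon-induced, was chosen after its values were seen and stood at 2.76 and 2.99 FPKM untreated, then 38.1 FPKM for doxycycline replicate 1 and 2.04 FPKM for replicate 2. TBK1, the partner kinase of IKBKE, also chosen after its values were seen, stood at 9.33 and 9.22 FPKM untreated, against 11.3 and 13.9 FPKM after doxycycline.

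Of 25 ubiquitin ligases, deubiquitinases, phosphatases and cofactors of the RIG-I-like receptors, 23 passed the filter. At an unadjusted p under 0.05, 1 was higher and 1 lower, beside 6.47% and 11.9% of all genes tested. RNF5, a ligase of the membrane adaptor STING and of MAVS, stood at 38.4 and 32.2 FPKM untreated, against 47.5 and 56.8 FPKM after doxycycline (limma adjusted p = 0.273). PPP1CA, a phosphatase that removes inhibitory phosphates from RIG-I and MDA5, stood at 81.8 and 68.5 FPKM untreated, against 53.9 and 42.5 FPKM after doxycycline (limma adjusted p = 0.246). TRIM25, a ligase that activates RIG-I, was chosen after its values were seen. It stood at 18.3 and 19.2 FPKM untreated, then 38.0 FPKM for doxycycline replicate 1 and 12.1 FPKM for replicate 2, above both controls in one library and below both in the other.

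Of 19 other double-stranded RNA sensors and RNA-handling genes, 17 passed the filter. At an unadjusted p under 0.05, 1 was higher and 2 lower, beside 6.47% and 11.9% of all genes tested. In doxycycline replicate 1, 5 of the 17 were at least 2-fold above the control mean, and in replicate 2 there was 1. Over all genes tested these shares were 3.92% and 5.99%. The 5, chosen after their values were seen, were DDX60, EIF2AK2, ADAR, ZNFX1 and PNPT1. DDX60, a helicase linked to RIG-I signalling, stood at 2.60 and 3.39 FPKM untreated, then 29.5 FPKM for doxycycline replicate 1 and 3.41 FPKM for replicate 2. EIF2AK2, the kinase PKR that halts translation, stood at 16.7, 17.3, 35.9 and 18.4 FPKM in the same order, and ADAR, which edits double-stranded RNA, at 31.1, 36.6, 71.3 and 36.7 FPKM. For these 3 genes doxycycline replicate 2 lay within 1.14 times the control mean.

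Of 8 other nucleic acid Toll-like receptors and partners, 4 passed the filter, and TLR7 and TLR8 were listed at 0 in every library. SLC15A4, an endolysosomal transporter, stood at 8.28 and 7.87 FPKM untreated, against 13.6 and 12.9 FPKM after doxycycline (limma adjusted p = 0.158), and IRAK4, a receptor-proximal kinase, at 4.99 and 4.39 and at 5.94 and 6.60 FPKM (limma adjusted p = 0.341). Of 10 genes of DNA sensing, 6 passed. At an unadjusted p under 0.05, 1 was higher and 2 lower, beside 6.47% and 11.9% of all genes tested. The gene of cGAS, the cytosolic DNA sensor, named MB21D1 in older annotation, stood at 7.52 and 6.05 FPKM untreated, against 4.47 and 3.73 FPKM after doxycycline (limma adjusted p = 0.196). RNASEH2C, a subunit of the ribonuclease that removes RNA from DNA hybrids, stood at 5.57 and 4.37 FPKM and at 2.88 and 2.68 FPKM (limma adjusted p = 0.175). IFI16, a DNA-binding sensor chosen after its values were seen, was the higher one, at 11.1 and 10.8 FPKM untreated, then 63.9 and 17.7 FPKM for doxycycline replicates 1 and 2 (limma adjusted p = 0.229). SAMHD1, which hydrolyses deoxynucleotides and was chosen in the same way, stood at 5.41 and 5.76 FPKM, then 14.02 and 3.99 FPKM. TMEM173, which encodes STING and was chosen after its values were seen, was at or under 0.359 FPKM in all 4 libraries.

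**Figure D4:**
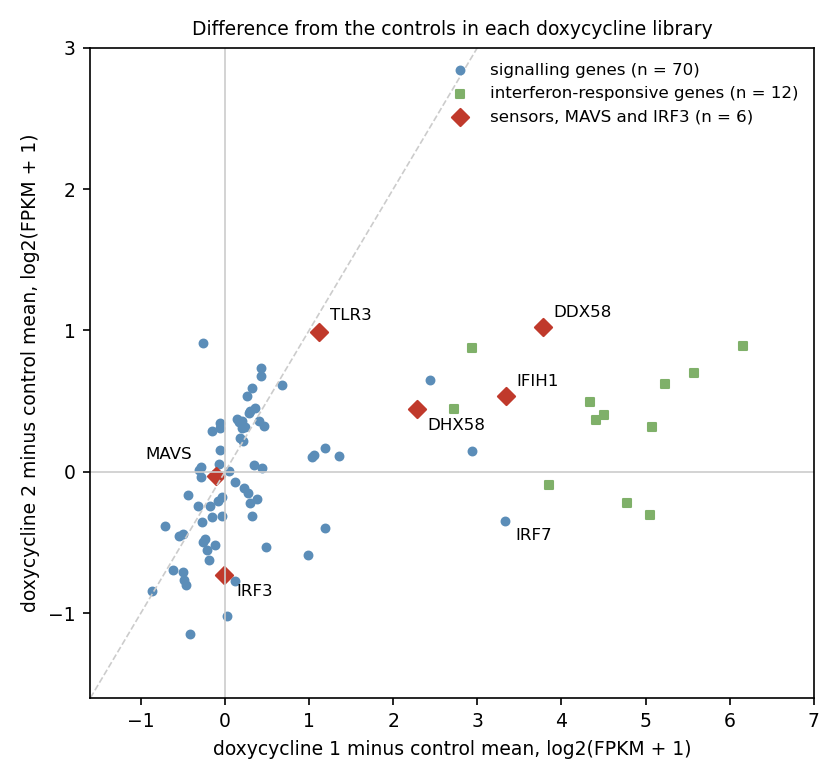
Difference from the control mean on the log2(FPKM + 1) scale, doxycycline replicate 1 (horizontal) against replicate 2 (vertical), for 6 sensor, adaptor and factor genes, 70 signalling genes and 12 interferon-responsive genes that passed the filter, with equal differences on the dashed line. Both axes subtract the same controls, so closeness to that line is no independent agreement; DDX58 lies at 3.78 and 1.02, and TLR3 near the line at 1.12 and 0.99.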

How the data were processed

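RNA was sequenced from 2 untreated and 2 doxycycline-treated samples. The deposited values are FPKM per gene, per the file headers. The submitters' processing notes list HISAT2 2.0.5, featureCounts 1.5.0-p3 and limma without saying what each did. The genome build and strand setting are not given in the sources used here, and the coordinates of all 10 genes equal those of GENCODE 29 (GRCh38). FPKM times gene length was a whole multiple of 1 step for 100.0% of genes in each library (tolerance 0.02 reads), which gave the reads. The size used by the authors for scaling was 97.2% to 107.5% of the recovered total.

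Differences are on the log2(FPKM + 1) scale, computed from the deposited FPKM, and understate the change of low genes. Genes whose mean reached 1 FPKM were tested with limma 3.58.1 (trend, R 4.3.3, two-sided, Benjamini-Hochberg), after a test on simulated data. Intervals are exact 95% Poisson or conditional binomial intervals (scipy 1.17.1). The genes, lists and motifs were chosen with earlier results of these data known. From each list the text names the 2 kept genes with the lowest limma p, and genes that differ at least 2-fold the same way in both doxycycline libraries and reach 1 FPKM in one. Some genes that this rule names are not reported here. Promoters come from RefSeq and coding bases from GENCODE 29, aligned with Biopython 1.88. Alternatives were other scalings, pseudocounts and filters, limma-voom on recovered reads, a replicate block and leaving out each library.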

Additional observations from a re-analysis of the deposited data

How the results depend on the processing

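DDX58, IFIH1, DHX58 and TLR3 kept the sign of their difference in both doxycycline libraries under all 8 alternatives run on them. Other pseudocounts and leaving out a control could not change it, since both doxycycline libraries lay above both controls. Their median log2 difference in doxycycline replicate 1, 2.81, became 3.31 with FPKM rescaled to the same sum in each library, 3.30 and 3.06 with pseudocounts of 0.1 and 0.5, and 2.94 scaled by reads outside the mitochondrial genome, and ran from 2.80 to 2.82 with 1 control left out. In doxycycline replicate 2, 0.76 became 0.69, 0.92, 0.85 and 0.84 under the same settings, and ran from 0.77 to 0.84 with 1 control left out. For all genes, limma called 42 higher and 219 lower with a mean FPKM of at least 5, and from 0 to 1553 higher and from 0 to 2389 lower with 1 library left out. The signalling genes at an unadjusted p under 0.05, 4 higher and 7 lower, became 2 and 4 with FPKM rescaled, 8 and 4 with quantile normalization and 10 and 4 scaled by reads outside the mitochondrial genome. The higher count was 7 with limma-voom and 2 with a mean FPKM of at least 5. With 1 library left out the counts ran from 0 to 14 and from 1 to 16. The cause of these shifts was not tested.

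The replicate numbers give no stated pairing, and the deviations of same-numbered libraries correlated across 12029 genes at 0.207. With a replicate block limma called 202 genes higher and 582 lower, and 8 signalling genes were higher at an unadjusted p under 0.05, with 1 higher and 1 lower after adjustment. Depth limits the interferon genes, since the two-sided interval of 0 reads in a library reaches 3.69 reads.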
